A study of Mus musculus with 6 samples.

Results

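The collagen genes of the mouse were taken as the protein-coding genes whose symbol has the form Col, a type number, the letter a and a chain number (Col1a1, Col4a2 and so on). The rule used names only and no measured value. It found 44 genes among the 52550 genes of the expression table. They were grouped by the kind of assembly their chains form, as 11 fibrillar chains, 6 basement membrane chains of type IV and 27 other chains. The hearts came from C57BL/6 mice lacking the long noncoding RNA named lncRNA-DRR (lncRNA-DRR-/-, called KO, n = 3) and from wild-type C57BL/6 mice (WT, n = 3). In every mouse the left anterior descending coronary artery had been tied permanently at 8 weeks of age, and the heart was taken at 10 weeks of age, 2 weeks after infarction. Sham-operated hearts were not analysed here, so KO and WT were compared only within the infarcted heart. The labels do not say how the deletion was made, whether KO and WT mice were littermates, or which region of the heart was used.

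Collagens are proteins in which chains built of short glycine-led repeats wind into a triple helix. Fibrillar collagens (types I, II, III, V, XI, XXIV and XXVII) pack into the cross-striated fibrils that give a scar its tensile strength, and in the heart types I and III are the main ones, made by fibroblasts and myofibroblasts. Type IV chains form a sheet-like network in the basement membranes around cardiomyocytes, capillaries and smooth muscle. The remaining types make beaded filaments (VI), hexagonal lattices (VIII, X), molecules that decorate fibrils (IX, XII, XIV, XVI and relatives), basement membrane zone proteins (XV, XVIII) or membrane-spanning chains (XIII, XVII, XXIII, XXV).

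The classes differ in the genes themselves, and 5 coding exons are printed as examples of a fibrillar and a type IV repeat. The fibrillar exons were picked for a length of 54 bases with evenly spaced GGN codons, and the Col4a1 exon for a broken repeat. The contrast between the printed exons thus follows from how they were picked, and values over all genes are given below them. Capitals mark the in-frame GGN codons, which encode glycine, that lead the glycine-led repeats. The sequences run 5′ to 3′ on the gene's strand (GENCODE M21 transcripts, GRCm38).
Col1a1, coding exon 8, chr11:94939904-94939957, plus strand: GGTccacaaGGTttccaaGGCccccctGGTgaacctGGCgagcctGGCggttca
Col1a2, coding exon 8, chr6:4515481-4515534, plus strand: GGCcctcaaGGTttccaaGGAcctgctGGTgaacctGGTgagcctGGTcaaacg
Col3a1, coding exon 6, chr1:45325360-45325413, plus strand: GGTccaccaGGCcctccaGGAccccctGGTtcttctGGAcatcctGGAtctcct
Col5a2, coding exon 6, chr1:45434892-45434945, minus strand: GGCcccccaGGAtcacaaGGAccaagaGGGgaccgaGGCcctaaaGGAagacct
Col4a1, coding exon 28, chr8:11222999-11223103, minus strand: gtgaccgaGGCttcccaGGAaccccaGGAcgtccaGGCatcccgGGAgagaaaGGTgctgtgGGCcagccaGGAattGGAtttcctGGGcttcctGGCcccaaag
The 4 fibrillar exons are each 54 bases long, begin with a glycine codon and hold 6 marked codons at even spacing. The Col1a1 exon also holds a GGN codon outside that spacing, left in lower case near its end. The Col4a1 exon is 105 bases long, starts within a codon, and its 11 marked codons are not evenly spaced: GGAattGGA breaks the repeat. Over the 11 fibrillar genes a median of 47.7% of the internal coding exons were 54 bases long, against 4.2% over the 6 type IV genes and 8.7% over the other genes. Single genes of the other class reached the fibrillar level, with 46.7% for Col9a2 and Col9a3 and 45.9% for Col22a1, beside 42.9% for Col1a1. The longest uninterrupted run of glycine-led triplets had a median of 338 triplets in fibrillar chains (216 to 344), 43.5 in type IV chains (39 to 66) and 45 in the other chains (23 to 113). Col24a1 and Col27a1 held the shortest fibrillar runs, at 216 and 217 triplets.

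Type IV genes also lie in head-to-head pairs, with both genes read away from a common region. Col4a1 and Col4a2 on chromosome 8 share 22 bases at their starts. Col4a4 and Col4a3 on chromosome 1 are 71 bases apart, and Col4a6 and Col4a5 on the X chromosome are 1308 bases apart. The stretch that the RefSeq promoter windows of Col4a1 and Col4a2 have in common (GRCm38.p6) is printed because both chains are read from it. It is set beside the whole windows of Col1a2 and Col3a1, whose RNAs followed each other across the hearts.
Col4a1 and Col4a2, shared, chr8:11312777-11312854, plus strand: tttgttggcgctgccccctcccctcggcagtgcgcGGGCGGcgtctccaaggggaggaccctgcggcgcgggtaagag
Col1a2, chr6:4505368-4505667, plus strand: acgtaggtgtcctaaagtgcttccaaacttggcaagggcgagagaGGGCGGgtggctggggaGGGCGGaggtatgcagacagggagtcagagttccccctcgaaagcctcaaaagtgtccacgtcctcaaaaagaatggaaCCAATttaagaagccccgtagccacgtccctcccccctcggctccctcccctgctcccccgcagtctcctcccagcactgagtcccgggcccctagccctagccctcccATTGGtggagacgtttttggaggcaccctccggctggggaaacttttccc
Col3a1, chr1:45311288-45311587, plus strand: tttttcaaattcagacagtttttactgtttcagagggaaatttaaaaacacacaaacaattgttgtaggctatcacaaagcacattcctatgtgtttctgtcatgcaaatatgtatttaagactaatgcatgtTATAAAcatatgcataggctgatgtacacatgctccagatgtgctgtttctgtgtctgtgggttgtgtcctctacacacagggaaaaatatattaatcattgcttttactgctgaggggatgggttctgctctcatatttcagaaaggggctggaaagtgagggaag
Capitals mark the motifs searched, which were TATAAA on the gene's strand and CCAAT and GGGCGG on both strands. The Col1a2 window is 61.0% G and C and holds 2 CCAAT and 2 GGGCGG matches, whereas the Col3a1 window is 37.7% G and C and holds a single TATAAA match. The shared Col4a1 and Col4a2 stretch is 73.1% G and C with 1 GGGCGG match. RefSeq windows were found for 35 of the 44 collagen genes. These genes had 38 windows. Of the 38, 5 held TATAAA, 13 held CCAAT and 23 held GGGCGG, beside 8.3%, 37.4% and 35.7% of all 32851 promoter windows of the same length. The 23 windows with GGGCGG belonged to 22 genes. These are letter matches and not binding sites.

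Library depth was estimated at 5189000 to 9398000 fragments, with WT replicate 3 the shallowest and WT replicate 1 the deepest, from the FPKM that a single fragment appeared to be worth. FPKM correct fragment numbers for the length of the transcript and the size of the library, so levels of different genes can be compared per length. The tissue's own markers were present, with Myh6, the alpha cardiac myosin heavy chain, at 2190, 1570 and 2330 FPKM in KO hearts and 1860, 2380 and 2810 FPKM in WT hearts. KO replicate 3 differed from the other 5 in sex-linked genes, with 25.6 FPKM of Xist, the RNA of the inactive X chromosome, and 0.028 FPKM of Ddx3y on the Y chromosome. The others had at most 0.0742 FPKM of Xist and at least 13.0 FPKM of Ddx3y, so the KO group holds 1 heart with a female pattern and the WT group none. The deleted RNA was not matched to a gene of the table and was not analysed here.

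No collagen gene passed the test for a difference between KO and WT infarcted hearts. Of the 44 genes, 31 had at least 0.5 FPKM in 3 or more libraries and were tested within a limma fit across all 14656 genes that passed this filter. None of the 31 was called at a Benjamini-Hochberg adjusted p under 0.05, where 0.375% of all tested genes were called (55 genes), and the smallest adjusted p of a collagen gene was 0.667. None had an unadjusted p under 0.05 in this fit either, beside 8.48% of all tested genes. In none of the 31 were all 3 KO hearts above or below all 3 WT hearts after scaling, whereas 14.0% of all tested genes separated in that way. The mean of the KO hearts was the higher one in 26 of the 31 genes, against 49.3% of all tested genes, and the median difference was 0.18 on the scale of log2(FPKM / scaling factor + 0.5) (range -0.28 to 0.77) beside 0 over all genes. That excess moved with the hearts included. Without KO replicate 2 the KO mean was higher in 13 of 30 collagen genes and their median difference was -0.03, and without WT replicate 1 it was higher in 27 of 30 with a median of 0.41. The median was 0.37 without KO replicate 3 and 0.08 without WT replicate 3. With both KO replicate 2 and WT replicate 1 left out, a choice made after seeing the data, the KO mean was higher in 23 of 30 genes and the median was 0.18. The 95% intervals of the 31 differences reached between 0.42 and 1.72 to either side of the estimate (median 0.63), and all of them included 0. They were not centred on 0. The interval ran from -0.08 to 1.07 for Col8a1 and from -0.94 to 0.37 for Col5a3. Moderate changes therefore lay within them, for single genes further in 1 direction than in the other. Nothing in the labels says whether hearts of 1 genotype came from separate litters or operation days, and p-values measure only the spread between these samples. In bulk tissue, fewer cells of a type and less RNA per cell cannot be told apart.

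**Figure D1:**
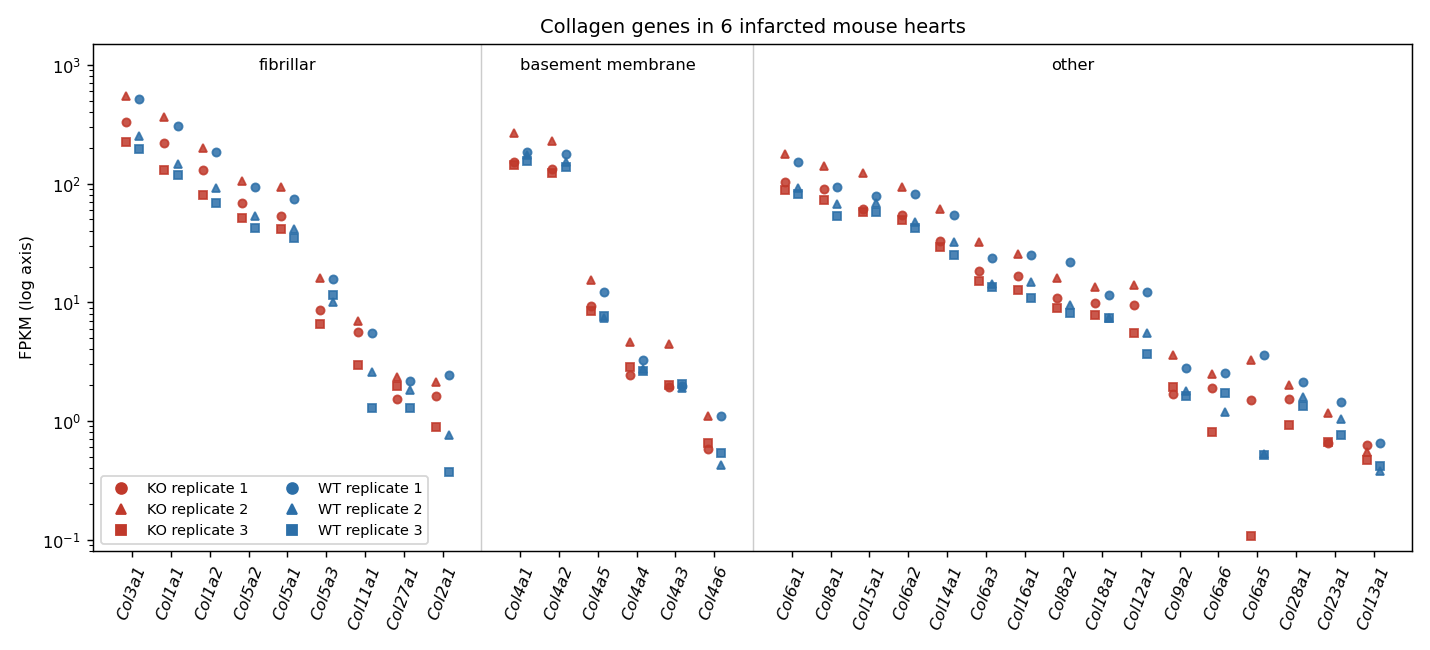
FPKM (log axis) of the 31 tested collagen genes in each heart, ordered by mean level within the fibrillar, basement membrane and other classes, with KO hearts in red to the left of WT hearts in blue and the symbol shape giving the replicate. The highest point of each gene is a red triangle (KO replicate 2) or a blue circle (WT replicate 1), and the red and blue points overlap in all 31 genes.

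Fibrillar chains were the most abundant class. Summed over the 11 genes they reached 821, 1350 and 540 FPKM in KO hearts and 1200, 599 and 476 FPKM in WT hearts, or 903 ± 409 and 757 ± 386 (SD, n = 3 each). They made up 53.4%, 52.2% and 46.0% of all collagen FPKM in KO hearts and 55.8%, 46.0% and 43.5% in WT hearts. Of the 9 genes tested, 8 had the higher mean in KO hearts and none passed the test, and the class median difference was 0.29.

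Col3a1 (chr1:45311538-45349706), the single chain of type III collagen, was the most abundant collagen. It had 333, 552 and 225 FPKM in KO hearts and 511, 252 and 197 FPKM in WT hearts. A high, a middle and a low heart stood in each group and the groups overlapped. Its difference was 0.25 ± 0.38 (KO minus WT, log2 scale, SE; 95% interval -0.65 to 1.15; limma adjusted p = 0.914).

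Type I collagen, the bulk protein of the scar, is built from the products of Col1a1 (chr11:94936224-94953042) and Col1a2 (chr6:4504814-4541544). Col1a1 had 218, 367 and 130 FPKM in KO hearts and 305, 145 and 118 FPKM in WT hearts. Col1a2 had 129, 199 and 80.1 FPKM in KO hearts and 186, 91.8 and 68.9 FPKM in WT hearts. Both genes ranked the 6 hearts in the same order as Col3a1, from KO replicate 2 down to WT replicate 3. Their differences were 0.34 ± 0.41 and 0.28 ± 0.39, with limma adjusted p of 0.877 and 0.897.

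Type V collagen sits inside type I fibrils and limits their width. Col5a2, which lies beside Col3a1 on chromosome 1, had 69.0, 106 and 51.0 FPKM in KO hearts and 93.9, 53.1 and 42.3 FPKM in WT hearts. Col5a1 had 53.4, 92.7 and 41.7 FPKM in KO hearts and 73.8, 41.2 and 34.9 FPKM in WT hearts. Both again had KO replicate 2 and WT replicate 1 on top, with differences of 0.29 ± 0.31 and 0.33 ± 0.31 and limma adjusted p of 0.856 and 0.842. Col5a3, a further chain of the type, had 8.68, 16.1 and 6.61 FPKM in KO hearts and 15.6, 9.97 and 11.4 FPKM in WT hearts. It was the one tested fibrillar gene with the lower mean in KO hearts (difference -0.28 ± 0.28; limma adjusted p = 0.849), and the groups overlapped because KO replicate 2 was its highest heart.

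The minor fibrillar chains are better known from cartilage. Col11a1, which nucleates thin fibrils, had 5.64, 6.93 and 2.96 FPKM in KO hearts and 5.49, 2.58 and 1.29 FPKM in WT hearts. This was the widest difference of any tested collagen, 0.77 ± 0.42 (95% interval -0.22 to 1.76; limma adjusted p = 0.706), with 1 WT heart above the lowest KO heart. Col2a1, the main cartilage collagen, had 1.61, 2.11 and 0.885 FPKM in KO hearts and 2.43, 0.760 and 0.369 FPKM in WT hearts, and Col27a1 lay between 1.29 and 2.36 FPKM in all 6. Col24a1 and Col11a2 stayed below the filter, although Col24a1 ranged from 0.0763 FPKM in KO replicate 3 to 1.31 FPKM in KO replicate 2.

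The 6 type IV chains, all of them tested, summed to 298, 522 and 280 FPKM in KO hearts and 380, 338 and 305 FPKM in WT hearts (366 ± 135 and 341 ± 37.1, SD, n = 3 each). KO replicate 2 stood apart at the top while the 3 WT hearts lay close together. All 6 genes had the higher mean in KO hearts and none passed the test, with a class median difference of 0.14.

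Col4a1 (chr8:11198423-11312826) and Col4a2 (chr8:11312805-11449287) encode the chains of the common basement membrane network. Col4a1 had 151, 266 and 143 FPKM in KO hearts and 183, 174 and 155 FPKM in WT hearts. Col4a2 had 133, 230 and 123 FPKM in KO hearts and 178, 152 and 138 FPKM in WT hearts. In both genes the other 2 KO hearts lay below all 3 WT hearts, and only KO replicate 2 lay above them. Their differences were 0.09 ± 0.21 and 0.02 ± 0.21 (limma adjusted p = 0.952 and 0.993) with all 6 hearts, and -0.15 and -0.22 without KO replicate 2.

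The chains Col4a3 to Col4a6 form the networks known from kidney, lung, eye and smooth muscle, and they were far scarcer here. Col4a5 had 9.30, 15.5 and 8.37 FPKM in KO hearts and 12.1, 7.38 and 7.65 FPKM in WT hearts. Col4a4 had 2.45, 4.59 and 2.86 FPKM in KO hearts and 3.28, 2.72 and 2.61 FPKM in WT hearts. Col4a3 had 1.93, 4.45 and 2.02 FPKM in KO hearts, where replicate 2 was alone, and 1.96, 1.89 and 2.04 FPKM in WT hearts. Col4a6, the lowest, had 0.576, 1.11 and 0.653 FPKM in KO hearts and 1.10, 0.429 and 0.535 FPKM in WT hearts. Differences of these 4 genes lay between 0.13 (Col4a6) and 0.34 (Col4a3), with limma adjusted p of 0.790 or more. Col4a5 and Col4a6 are on the X chromosome, and in both the female-pattern KO replicate 3 lay within the range of the other hearts.

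**Figure D2:**
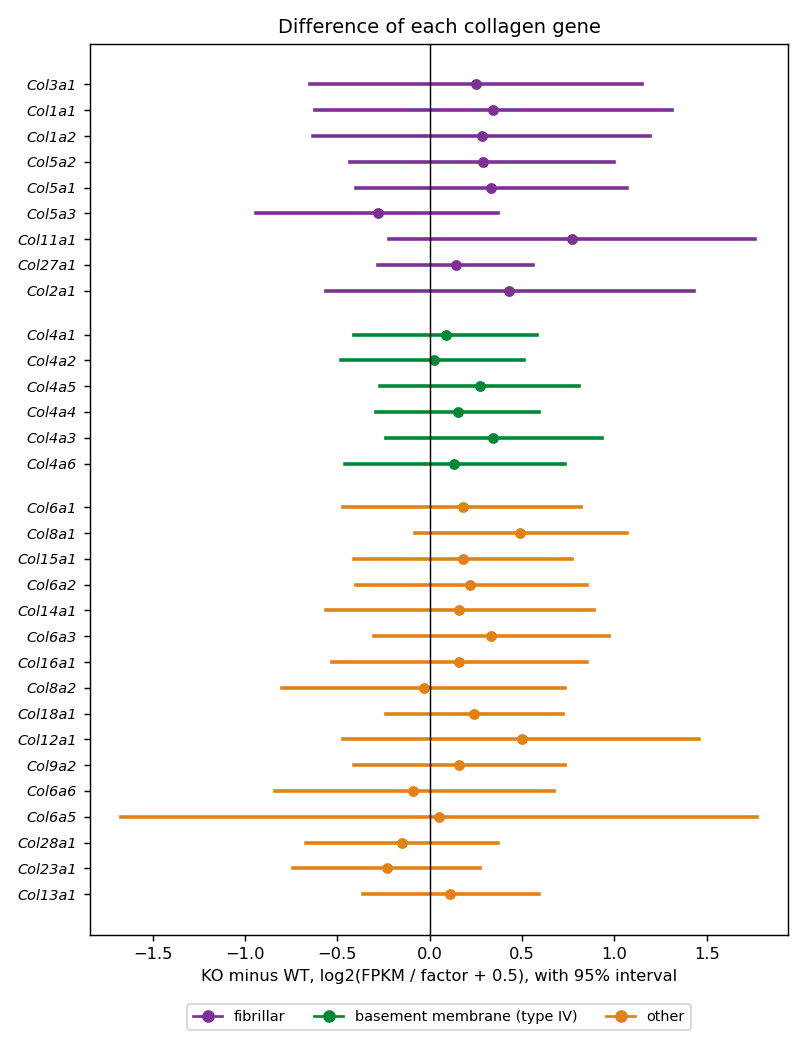
Difference of each tested collagen gene between KO and WT hearts (KO minus WT, log2 scale, x axis), with its 95% interval from limma (3 hearts per group), for fibrillar genes at the top, type IV genes in the middle and the others below. All 31 intervals cross 0, and 26 of the points lie to the right of it.

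The 27 other chains summed to 417, 712 and 353 FPKM in KO hearts and 570, 365 and 312 FPKM in WT hearts (494 ± 191 and 416 ± 136, SD, n = 3 each). Of the 16 that were tested, 12 had the higher mean in KO hearts, none passed the test and the median difference was 0.16. Their share of all collagen FPKM was nearly constant, between 26.6% and 30.1% in the 6 hearts.

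Type VI collagen forms beaded filaments around cells. Col6a1, its most abundant chain, had 104, 177 and 88.0 FPKM in KO hearts and 153, 91.4 and 82.1 FPKM in WT hearts. Col6a2 had 54.6, 93.1 and 49.5 FPKM in KO hearts and 80.9, 47.0 and 42.5 FPKM in WT hearts. Col6a1 ranked the hearts as the type I chains did, and Col6a2 differed only in that KO replicate 3 lay above WT replicate 2, with differences of 0.18 ± 0.28 and 0.22 ± 0.27 (limma adjusted p = 0.914 and 0.876). Col6a3, the longest of these chains, had 18.5, 32.1 and 15.2 FPKM in KO hearts and 23.8, 14.2 and 13.5 FPKM in WT hearts (difference 0.33 ± 0.27, limma adjusted p = 0.822). Col6a5 and Col6a6, neighbours on chromosome 9, had at most 3.56 FPKM. Col6a5 varied most of all tested collagens, with 1.50, 3.29 and 0.107 FPKM in KO hearts and 3.56, 0.524 and 0.519 FPKM in WT hearts.

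Type VIII collagen makes a short-chain lattice in vessel walls and in injured tissue. Col8a1 (chr16:57624258-57754737) had 89.7, 141 and 72.3 FPKM in KO hearts and 93.6, 66.7 and 53.5 FPKM in WT hearts. The groups overlapped, since WT replicate 1 lay above KO replicates 1 and 3 in FPKM, and above KO replicate 3 after scaling. This gene had the smallest p of the 31, with a difference of 0.49 ± 0.25 (95% interval -0.08 to 1.07; unadjusted p = 0.0824; limma adjusted p = 0.667). Its partner Col8a2 had 10.9, 15.9 and 8.96 FPKM in KO hearts and 22.0, 9.48 and 8.18 FPKM in WT hearts, a difference of -0.03 ± 0.33.

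Collagens XV and XVIII lie in the basement membrane zone and release the antiangiogenic fragments restin and endostatin. Col15a1 had 61.1, 123 and 58.1 FPKM in KO hearts and 78.7, 68.4 and 58.0 FPKM in WT hearts (difference 0.18 ± 0.25, limma adjusted p = 0.903). As with Col4a1, a single KO heart stood high and WT replicate 1 only slightly so. Col18a1 lay between 7.31 and 13.5 FPKM and its difference was 0.24 ± 0.20.

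Of the fibril-associated chains, Col14a1 had 32.9, 61.5 and 29.2 FPKM in KO hearts and 54.6, 31.9 and 24.8 FPKM in WT hearts. Col16a1 had 16.6, 25.6 and 12.8 FPKM in KO hearts and 24.9, 14.7 and 10.9 FPKM in WT hearts. Each had a difference of 0.16 with the groups overlapping (limma adjusted p = 0.931 for both). Col12a1, which binds the surface of type I fibrils in tissue under load, reached 13.9 FPKM in KO replicate 2 and 3.65 FPKM in WT replicate 3 (difference 0.50 ± 0.41). The cartilage chain Col9a2, the membrane-spanning Col13a1 and Col23a1, and Col28a1 were all below 4 FPKM, with differences between -0.23 (Col23a1) and 0.16 (Col9a2).

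The 13 collagen genes that were not tested were the fibrillar Col24a1 and Col11a2 and the 11 others Col22a1, Col20a1, Col7a1, Col26a1, Col9a1, Col9a3, Col10a1, Col25a1, Col17a1, Col6a4 and Col19a1. Their highest value in any library was 1.31 FPKM. Col20a1 had 0.236, 0.493 and 0.129 FPKM in KO hearts and 0.496, 0.514 and 0.510 FPKM in WT hearts. Its KO values were thus all below its WT values in FPKM, by a narrow margin. In a fit with no filter it had the smallest p of the collagens (limma adjusted p = 0.796). Col9a1 was listed at 0 in 1 library, Col10a1, Col17a1 and Col6a4 in 2 each and Col19a1 in 5. Whole fragment counts could not be recovered from the FPKM, so no counting limit is given for these zeros. For the 44 genes the filter of 0.5 FPKM corresponded to roughly 7 to 54 fragments, depending on gene and library. The least abundant heart held about 5684 fragments of Col3a1, about 51 of Col11a1 and about 7 of Col6a5.

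The collagens varied more between hearts of the same genotype than most genes did. The SD within genotypes on the log2 scale had a median of 0.421 over the 31 tested genes, beside 0.217 over all tested genes, and 29 of the 31 lay above that overall median. Fibrillar genes had a median SD of 0.605, and 7 of the 9 were among the most variable 10% of all tested genes. Type IV genes had a median SD of 0.308 with none of the 6 among them, and the other class had 0.415 with 5 of 16. Within a class the least variable members were Col27a1 (SD 0.209), Col4a4 (0.246) and Col13a1 (0.147).

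**Figure D3:**
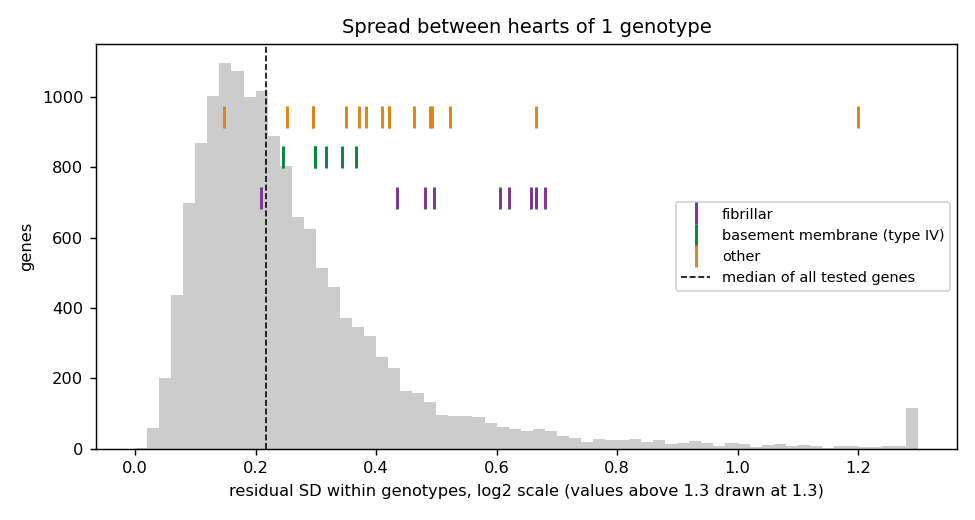
Histogram of the residual SD within genotypes (log2 scale, x axis) for all 14656 tested genes in grey, with the collagen genes drawn as coloured ticks by class and the overall median of 0.217 as a dashed line. Most fibrillar ticks lie far to the right of the bulk, with a class median of 0.605, and the type IV ticks lie between, with a median of 0.308.

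The same hearts were high across most of these genes. After scaling, KO replicate 2 was the highest library in 25 of the 31 tested collagens, against 21% of all tested genes. KO replicate 2 and WT replicate 1 were together the highest pair in 25 of the 31, against 11.2% of all tested genes. WT replicate 3 was the lowest in 17 of the 31, among them 8 of the 9 fibrillar genes. Because they moved together, the 31 genes are not 31 separate observations. The order of the hearts also went with estimated library depth at both ends. WT replicate 1 and KO replicate 2 were the deepest libraries, at about 9398000 and 8163000 fragments, and WT replicate 3 was the shallowest, at about 5189000. WT replicate 2, at about 7955000 fragments, was the highest library in 0 of the 31. A part of depth in the collagen levels was not tested.

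The high WT heart and the high KO heart did not have the same collagen pattern. In KO replicate 2 the summed scaled level was 1.79 times the mean of the other KO hearts for fibrillar chains, 1.64 times for type IV, 1.67 times for type VI and 1.82 times for Col15a1 with Col18a1. In WT replicate 1 the same comparison with the other WT hearts gave 2.02 times for fibrillar chains and 1.62 times for type VI, but 1.07 times for type IV and 1.16 times for Col15a1 with Col18a1. The ratio of fibrillar to type IV FPKM was accordingly highest in WT replicate 1. It was 2.76, 2.58 and 1.93 in KO hearts and 3.16, 1.77 and 1.56 in WT hearts (2.42 ± 0.434 and 2.16 ± 0.867, SD, n = 3 each), and the groups overlapped. The difference of 0.22 on the log2 scale depended on single hearts. It was 0.53 without WT replicate 1, when the groups no longer overlapped, and 0.02 without WT replicate 3. It was 0.12 without KO replicate 1, 0.37 without KO replicate 3 and 0.11 without WT replicate 2. The ratio of KO replicate 2 itself, 2.58, lay between those of the other KO hearts, 2.76 and 1.93. The folds of KO replicate 2 and WT replicate 1 have no replicate and no test.

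**Figure D4:**
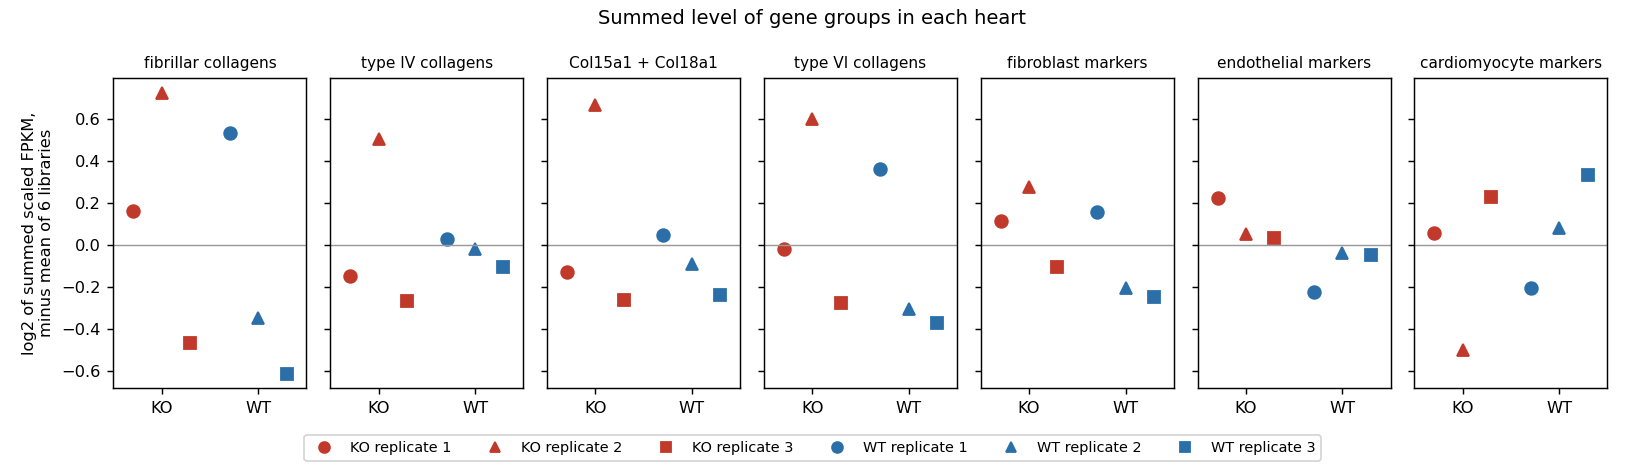
Summed scaled FPKM of collagen groups and of cell type markers in each heart, as log2 minus the mean of the 6 libraries (y axis), with KO hearts in red left of WT hearts in blue. KO replicate 2 (red triangle) is high in all 4 collagen panels and lowest for cardiomyocyte markers, and WT replicate 1 (blue circle) is high for fibrillar and type VI chains but near the other WT hearts for type IV.

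Markers of other cell types moved with these hearts. The 8 cardiomyocyte markers summed to 8980, 6780 and 10300 FPKM in KO hearts and 8410, 9500 and 10900 FPKM in WT hearts, so that the highest-collagen heart of each group had the lowest sum of its group. After scaling, KO replicate 2 had 0.639 times the cardiomyocyte marker level of the other KO hearts and WT replicate 1 had 0.745 times that of the other WT hearts. The 9 fibroblast markers summed to 1630, 2030 and 1430 FPKM in KO hearts and 1890, 1360 and 1270 FPKM in WT hearts. Their sum stood at 1.20 and 1.30 times, and single markers differed from it. Gsn had 493, 554 and 499 FPKM in KO hearts and 555, 498 and 457 FPKM in WT hearts. Mmp2 had 115, 175 and 79.8 FPKM in KO hearts and 176, 96.5 and 81.3 FPKM in WT hearts. The sum of the 7 myofibroblast markers stood at 1.36 and 1.50 times, below the sum of the fibrillar chains in both hearts. Most of it was Postn and Acta2, and single markers differed from it here too. In KO hearts Acta2 had 172, 156 and 126 FPKM, whereas Thbs4 had 40.4, 80.3 and 31.6 FPKM and Ltbp2 had 26.3, 55.5 and 26.9 FPKM. The endothelial marker sum was at 0.948 and 0.885 times, beside 1.64 and 1.07 times for the type IV chains, which endothelial cells make. Single endothelial markers went both ways in KO replicate 2. Fabp4, a large part of the sum, had 219, 158 and 189 FPKM in KO hearts, and Emcn had 26.5, 24.6 and 26.9 FPKM. Cdh5 had 140, 178 and 123 FPKM there, and Tie1 had 31.8, 37.3 and 25.4 FPKM. Other marker sums came closer to the fibrillar chains in these hearts. Mesothelial markers, which summed to 22.1, 35.9 and 17.4 FPKM in KO hearts and 36.0, 12.7 and 19.3 FPKM in WT hearts, stood at 1.65 times in KO replicate 2 and 2.02 times in WT replicate 1. Markers of cartilage and valve stood at 1.64 and 1.72 times. They summed to 130, 212 and 105 FPKM in KO hearts and 187, 115 and 82.2 FPKM in WT hearts, most of it Comp, and Matn1 was listed at 0 in all 6. Single markers of both lists differed from their sums in WT hearts. The mesothelial Upk3b had 9.66, 3.95 and 5.16 FPKM there, whereas Wt1 had 1.28, 0.912 and 1.66 FPKM. Comp had 165, 94.7 and 66.6 FPKM there, whereas Chad had 2.99, 4.46 and 2.34 FPKM and Prg4 had 6.68, 7.04 and 5.62 FPKM. Macrophage markers were at 1.21 and 1.46 times, Schwann cell markers at 1.34 and 1.40 times, mural cell markers at 1.06 and 0.930 times and adipocyte markers at 0.977 and 0.807 times. Skeletal muscle markers, at most 25.7 FPKM in sum, were at 1.00 and 4.33 times. None of the markers in these lists was called. Their part in the collagen levels was not tested beyond a fit with the summed fibroblast markers as a covariate. In that fit, chosen after seeing the data, no collagen was called. The difference adjusted for the covariate (KO minus WT) was positive in 6 of 31 genes, with a median of -0.14. Leaving out the female-pattern KO replicate 3 gave a higher KO mean in 29 of 31 genes and a median of 0.37, again with none called.

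Ratios between abundant chains were steadier than the chains themselves. After scaling, the highest heart had 2.78 times the Col1a1 level of the lowest, 2.51 times that of Col3a1 and 1.71 times that of Col4a1, whereas a ratio within a heart does not depend on scaling. Col3a1 to Col1a1, the type III to type I balance often measured in scars, was 1.53, 1.50 and 1.72 in KO hearts and 1.68, 1.74 and 1.67 in WT hearts. The groups overlapped and the difference of -0.10 on the log2 scale gave p = 0.3 in a two-sided exact permutation test, whose smallest possible p is 0.1. Without 1 heart the difference lay between -0.16 (without KO replicate 3) and -0.06 (without KO replicate 2). Col1a1 to Col1a2 lay between 1.63 and 1.85 in KO hearts and between 1.58 and 1.72 in WT hearts. Col4a1 to Col4a2, the pair that shares its start region, was 1.14, 1.16 and 1.16 in KO hearts and 1.03, 1.14 and 1.12 in WT hearts. Col6a1 to Col6a2 was 1.90, 1.90 and 1.78 in KO hearts and 1.89, 1.95 and 1.93 in WT hearts. In each of these 4 ratios the highest heart was at most 1.17 times the lowest.

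Of 30 ratios between chains of the same type, 4 separated the genotypes completely. That share is near the 15.9% of all 465 pairs of tested collagens that did so. Col5a1 to Col5a3 was 6.15, 5.77 and 6.30 in KO hearts and 4.73, 4.13 and 3.07 in WT hearts, and Col5a2 to Col5a3 separated alongside it because of the shared Col5a3. Col8a1 to Col8a2 was 8.26, 8.87 and 8.07 in KO hearts and 4.26, 7.04 and 6.54 in WT hearts. Col6a1 to Col6a3 was 5.61, 5.50 and 5.80 in KO hearts and 6.43, 6.45 and 6.08 in WT hearts. Each reached the smallest p of the exact permutation test, 0.1, which became 0.545 after Benjamini-Hochberg adjustment over the 30 ratios. The ratios with Col6a5 spread widest, from 43.0 to 821 for Col6a1 to Col6a5.

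**Figure D5:**
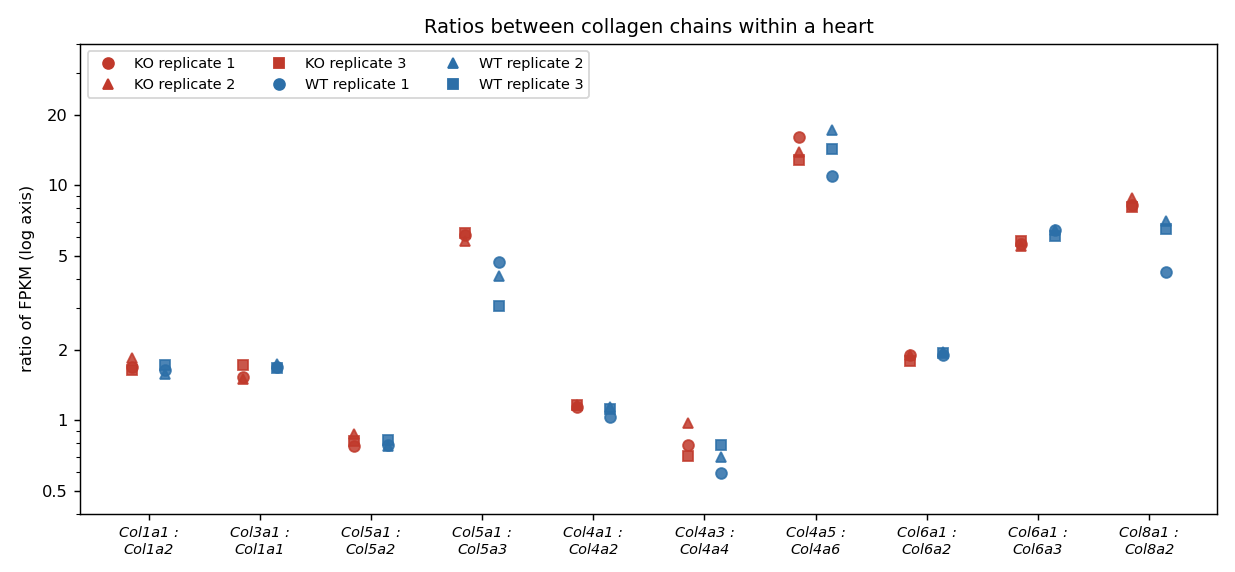
Ratio of FPKM between collagen chains within each heart (log axis), with KO hearts in red left of WT hearts in blue. Col1a1 to Col1a2, Col4a1 to Col4a2 and Col6a1 to Col6a2 stay within narrow bands in all 6 hearts, and the red points lie above the blue ones for Col5a1 to Col5a3 (5.77 to 6.30 against 3.07 to 4.73) and Col8a1 to Col8a2 (8.07 to 8.87 against 4.26 to 7.04).

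The RNAs of genes for proteins that make, cross-link, bind and degrade collagen were read from 6 lists, and none of them was called. The counts below stand beside these shares of all tested genes. The KO mean was higher in 49.3%, the unadjusted limma p was under 0.05 in 8.48%, and the groups did not overlap after scaling in 14.0%. Of the 24 synthesis genes 14 had the higher mean in KO hearts, and 3 had an unadjusted p under 0.05. The smallest p belonged to P3h2, a prolyl 3-hydroxylase acting on type IV chains, with 3.77, 4.82 and 4.11 FPKM in KO hearts and 6.32, 5.45 and 5.09 FPKM in WT hearts (difference -0.36 ± 0.12; limma adjusted p = 0.404). Fkbp10, a prolyl isomerase of the procollagen-folding machinery, had 20.2, 25.5 and 16.1 FPKM in KO hearts and 15.6, 15.9 and 11.5 FPKM in WT hearts (difference 0.51 ± 0.17; limma adjusted p = 0.434). P3h2 was lower in every KO heart than in any WT heart, and Fkbp10 higher in every KO heart.

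Of the 13 genes for procollagen trimming and cross-linking, 10 were tested and 9 of these had the higher mean in KO hearts, 2 with an unadjusted p under 0.05. Both were lysyl oxidase relatives, enzymes that start the cross-links. Loxl4 had 1.38, 1.82 and 1.29 FPKM in KO hearts and 0.963, 1.00 and 0.444 FPKM in WT hearts (difference 0.65 ± 0.22; limma adjusted p = 0.434). Loxl2 had 24.8, 50.1 and 25.1 FPKM in KO hearts and 26.4, 17.4 and 16.4 FPKM in WT hearts (difference 0.68 ± 0.26; limma adjusted p = 0.516). The Loxl4 values did not overlap between the groups. Those of Loxl2 overlapped in FPKM, through WT replicate 1, and no longer did so after scaling. Of the 9 tested collagen receptors, none had an unadjusted p under 0.05. Those nearest were Ddr2, a receptor tyrosine kinase for fibrillar collagen (difference 0.37 ± 0.20), and Itga10, a collagen-binding integrin chain (0.25 ± 0.21).

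All 9 fibril-associated proteoglycans and relatives had the higher mean in KO hearts, and 2 had an unadjusted p under 0.05. Their summed scaled level was 1.35 times that of the other KO hearts in KO replicate 2. In WT replicate 1 it was 1.40 times that of the other WT hearts. The 9 genes are therefore not 9 separate observations. Omd, a small leucine-rich proteoglycan known from bone, had 9.96, 9.67 and 6.97 FPKM in KO hearts and 7.70, 4.47 and 3.33 FPKM in WT hearts (difference 0.80 ± 0.25; limma adjusted p = 0.392). Aspn, a relative that binds type I collagen, had 339, 320 and 214 FPKM in KO hearts and 269, 161 and 131 FPKM in WT hearts (difference 0.69 ± 0.27; limma adjusted p = 0.529). In both, WT replicate 1 again lay within the KO range, and KO replicate 2 was not the highest heart.

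Among the 10 genes of collagen breakdown, 5 had the higher mean in KO hearts and 3 had an unadjusted p under 0.05. Timp3, a matrix-bound inhibitor of metalloproteinases, had 104, 152 and 104 FPKM in KO hearts and 72.9, 57.6 and 54.5 FPKM in WT hearts. Its groups were well apart, and it came nearest to the threshold of all these genes (difference 0.95 ± 0.16; limma adjusted p = 0.0712). Mmp8, a collagenase best known from neutrophils, had 0.355, 0.653 and 0.840 FPKM in KO hearts and 1.87, 1.63 and 1.87 FPKM in WT hearts (difference -1.05 ± 0.21; limma adjusted p = 0.129). Of the 11 partners of type IV collagen in basement membranes, 8 had the higher mean in KO hearts and none an unadjusted p under 0.05. The smallest p there belonged to the laminin chains Lama5 (difference -0.28 ± 0.13) and Lamb2 (-0.19 ± 0.12).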

How the data were processed

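Per the labels' protocols, Trizol RNA from 3 KO and 3 WT infarcted hearts was sequenced as TruSeq libraries. The table the authors deposited is titled as counts but its values are FPKM per gene. Bowtie 0.12.2 and builds mm8 and mm9 are listed, with no roles, per the submitters' processing notes. The sources used here do not name the quantifier or annotation, nor whether strand was used. Reads from overlapping genes therefore cannot be told apart, and at most 8.1% of the exonic bases of a collagen gene (Col9a3) overlap another gene.

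Of 52550 identifiers, 52403 matched GENCODE M21, from which symbols, coordinates and exons were taken. Approximate depth was read from the commonest step of FPKM multiplied by transcript length. At most 29.9% of low values were whole within 0.02 fragments, so no count test was run. Genes with at least 0.5 FPKM in 3 libraries were scaled by trimmed means (trims 0.3 and 0.05), and log2(FPKM / factor + 0.5) was fitted with limma 3.58.1 in R 4.3.3 (trend, two-sided, Benjamini-Hochberg, called under 0.05). The pseudocount shrinks differences of low genes. The script was tested on simulated data. Ratios were compared by exact permutation.

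The genes and lists were chosen with earlier results of these data known. Values per library are given for the 7 most abundant members of each class, for Col2a1, Col8a2, Col6a5 and Col20a1, and for single markers. From each related list up to 2 genes of smallest p are named. Their values per library are given except for the collagen receptors and the basement membrane partners.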

Additional observations from a re-analysis of the deposited data

How the results depend on the processing

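No collagen gene was called under any of the 18 alternatives run, which changed the scaling, the filter, the pseudocount, the empirical Bayes step, the samples or the covariates; the smallest adjusted p in any of them was 0.2, for Col6a5 with the fibroblast marker covariate. The count over all genes was 55 as reported, 20 without a filter, between 12 and 36 without 1 library, and 3 with KO replicate 2 and WT replicate 1 left out. Collagens with an unadjusted limma p under 0.05 numbered 4 of 30 without WT replicate 1 and 4 of 31 with the fibroblast marker covariate. There were 2 without KO replicate 3, 2 with KO replicate 2 and WT replicate 1 left out, 2 with a replicate block and 1 without KO replicate 2. The other alternatives had none. The share of all tested genes was not taken in these fits, so these counts have no background beside them. Directions of single genes were less stable. Leaving out 1 library reversed the sign of 15 genes, whose log2 differences (KO minus WT) then ranged as follows: Col6a1 (-0.07 to 0.4), Col6a2 (-0.01 to 0.46), Col14a1 (-0.12 to 0.43), Col3a1 (-0.04 to 0.6), Col15a1 (-0.13 to 0.35), Col9a2 (-0.08 to 0.31), Col4a6 (-0.02 to 0.34), Col4a1 (-0.15 to 0.23), Col4a2 (-0.22 to 0.17), Col16a1 (-0.07 to 0.42), Col6a6 (-0.31 to 0.25), Col8a2 (-0.26 to 0.34), Col4a4 (-0.04 to 0.28), Col28a1 (-0.3 to 0.06) and Col6a5 (-0.51 to 0.77). With KO replicate 2 and WT replicate 1 left out, an alternative chosen after seeing the data, the sign turned in Col15a1 (-0.07), Col4a1 (-0.15), Col4a2 (-0.17) and Col8a2 (0.17). A pseudocount of 0.1 turned Col6a5 (-0.1). With the summed fibroblast markers as a covariate, also chosen after seeing the data, 20 genes turned: Col6a1 (-0.2), Col18a1 (-0.03), Col1a1 (-0.26), Col6a2 (-0.14), Col14a1 (-0.27), Col2a1 (-0.15), Col5a2 (-0.16), Col3a1 (-0.31), Col5a1 (-0.12), Col15a1 (-0.08), Col9a2 (-0.1), Col1a2 (-0.29), Col4a6 (-0.12), Col4a5 (-0.03), Col4a1 (-0.08), Col4a2 (-0.19), Col12a1 (-0.11), Col16a1 (-0.26), Col6a3 (-0.04) and Col6a5 (-1.05). The cause was not tested. No change of sign was seen in 7 of the 31 under the alternatives that gave them a value. Col13a1, one of the 7, fell below the filter in 5 of the 18.

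Replicate numbers are shared by the titles of KO and WT hearts, but same-numbered hearts did not deviate together (r = 0.01, -0.04 and 0.18 for numbers 1 to 3), and KO replicates 1 and 2 correlated best with another number, so the numbers were not taken as pairs. A fit with the replicate block called 42 genes and 0 collagens. An exact sign-flip test of the Col3a1 to Col1a1 ratio gave p = 0.5, where 0.25 is the smallest possible. Low-abundance collagens rest on few fragments, and 3 hearts per group limit every comparison.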
